A study of Mus musculus with 12 samples.

Results

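The genes described here are 47 genes of mitosis and of the G2 to M transition, given by name: Cdk1 with its cyclins and Cdc25 phosphatases, the mitotic kinases and checkpoint proteins, the chromosomal passenger complex, regulators of anaphase and mitotic exit, kinetochore proteins, spindle motors, cytokinesis proteins and proteins of chromosome structure. All 47 were found among the 24421 gene symbols of the expression table, and all 47 passed the minimum level for testing, as did 10899 genes in all. They were followed in RNA sequencing of RAW264.7 cells, a mouse macrophage line of BALB/c origin, which divides in culture. KO cells are Parp14 -/-, knocked out for a gene of an ADP-ribosyltransferase, and WT cells are wild type. The 12 libraries formed 6 groups of 2: KO cells given LPS (lipopolysaccharide, from the outer membrane of bacteria) for 2 h (KO_LPS), untreated KO cells (KO_UT), WT cells with LPS and a Jak kinase inhibitor (WT_LPS_JAKi), WT cells with the inhibitor alone (WT_JAKi), WT cells with LPS (WT_LPS) and untreated WT cells (WT_UT). LPS was given for 2 h in the WT groups too, and the titles of the WT_JAKi libraries give no time. Which inhibitor was used, at what dose, how the KO was made and whether it is 1 clone are not stated in the labels. No label says that replicates were separate cultures, and the spread behind the p-values is that between libraries and may be technical.

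Levels are CPM, the reads of a gene scaled to 1 M reads in genes per library; these numbered 35.9 to 45.7 M; the 47 genes together held 214680 to 436143 reads per library. A change is the difference of log2(CPM + 1) between groups; its standard error (SE) and p come from limma, the p adjusted over all tested genes by the Benjamini-Hochberg method. A gene was called higher or lower where that p was under 0.05. All 10 macrophage markers were detected, at a summed 11844 to 16039 CPM, and none of 9 lymphocyte, 5 granulocyte and 10 stromal, epithelial and endothelial markers reached 1 CPM in any library. The summed levels of those 3 lists reached at most 0.821, 0.799 and 0.523 CPM. Parp14 was at 34.9 and 40.5 CPM in KO_LPS, 10.0 and 11.97 CPM in KO_UT, 110 and 138 CPM in WT_LPS_JAKi, 74.7 and 102 CPM in WT_JAKi, 315 and 419 CPM in WT_LPS and 76.4 and 99.7 CPM in WT_UT. KO libraries were below WT libraries of the same treatment, with log2 differences of -2.89 untreated (SE 0.20, adjusted p = 2.66e-05) and -3.24 after LPS (SE 0.20, adjusted p = 1.12e-05).

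Transcripts of these genes accumulate late in the cell cycle, when cyclin B bound to Cdk1 drives entry into mitosis, and many of their proteins are destroyed as cells leave it. The kinetochore ties chromosomes to spindle microtubules, and the checkpoint kinases hold back anaphase until every chromosome is attached. Their promoters are known for a cell cycle homology region (CHR) and for CCAAT boxes, bound by the DREAM and B-Myb complexes and by NF-Y, and the transcription factor Foxm1 acts at many of them. Because they are read from dividing cells, their summed level in a bulk sample depends both on how many cells are in G2 or mitosis and on how much of each RNA such a cell holds, and these cannot be told apart here.

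After LPS 44 of the 47 genes fell in WT cells and 0 rose. The summed level was 6069 and 5999 CPM in WT_LPS, against 10170 and 10453 CPM in WT_UT, or 0.603% of all gene reads after LPS and 1.03% before it. Of all tested genes 53.6% were called lower and 13.7% higher. At an unadjusted p under 0.05, 45 were lower and 0 higher, and 7655 of the 10899 tested genes passed in either direction. The median log2 change of the 47 genes was -0.76, against -0.30 over all tested genes, and 20.2% of the tested genes were at or below -0.76. A fall of at least 2-fold was called for 14 of the 47 genes and for 11.2% of the tested genes. In 46 of the 47 genes both WT_LPS libraries lay below both WT_UT libraries, and Ube2c lay the other way. That share was not counted over all tested genes, of which 8116 of 10899 had a change below 0.

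The fall was smaller where libraries were rescaled by the median of ratios over expressed genes, which moved the median change of all tested genes to -0.04. On that scale the median of the 47 genes was -0.47; 35 were called lower and 1 higher, beside 32.5% and 26.4% of all tested genes. The gene called higher was Ube2c. Counts of reads tested with edgeR and with DESeq2, which scale in a like way, gave 32 lower and 1 higher in each. Of all tested genes edgeR called 31.4% lower and 28.0% higher, and DESeq2 29.6% and 30.4%. The 11 genes not called after rescaling were Spc24, Smc4, Nusap1, Ccnb1, Cenpa, Tpx2, Ccnb2, Aurka, Smc2, Cdc25c and Cdk1, with rescaled changes from -0.32 for Tpx2 to 0.13 for Cdk1. With the replicate number as a block and rescaling, 42 genes were called lower and 2 higher, beside 40.2% and 35.0%: Spc24, Smc4, Cenpa, Tpx2, Ccnb2, Aurka and Cdc25c were then called lower (adjusted p of 3.33e-05 to 0.0441) and Cdk1 higher, and Nusap1, Ccnb1 and Smc2 were not called. Relative to the median of all tested genes the 47 genes were 0.46 lower over gene reads and 0.43 lower after rescaling.

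**Figure D1:**
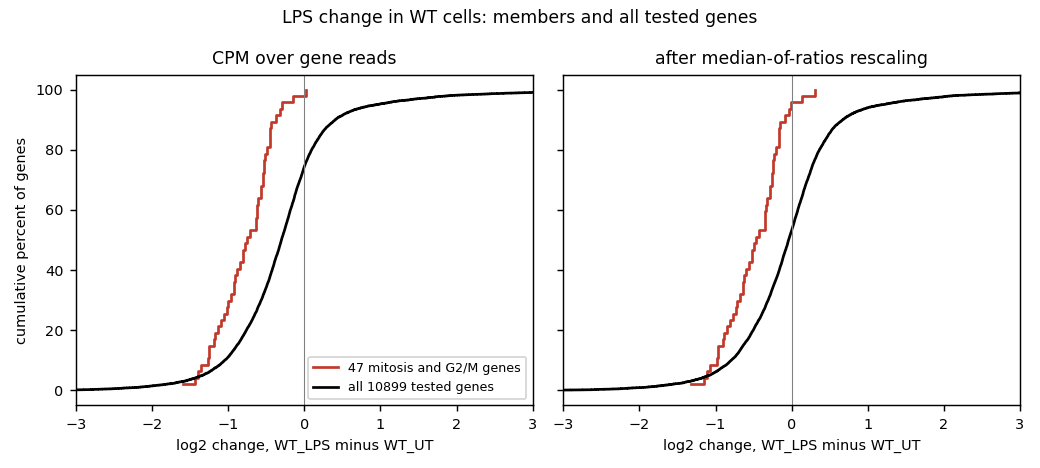
Cumulative percent of genes (vertical axis) by log2 change of WT_LPS minus WT_UT (horizontal axis), for the 47 mitosis and G2/M genes in red and all 10899 tested genes in black, with CPM over gene reads at left and after median-of-ratios rescaling at right. The red curve lies left of the black one over most of its range in both panels, with medians of -0.76 and -0.30 at left and -0.47 and -0.04 at right.

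The promoters of these genes were searched for words already known from such genes, so a high share of them is not a new result of these data. Windows of 300 bases around the start (250 before, 50 after, from RefSeq on GRCm38.p6) were at hand for 39 of the 47 genes and for 27025 genes in all. The 39 genes had 41 windows. In 30 of these, bases after the start were found in an annotated transcript of the gene. Windows are counted per gene below, and a gene was counted where any of its windows met the condition. The words TTTGAA or TTTAAA, the core of the CHR, stood on either strand in 34 of the 39 windows (87.2%), against 30.6% of all windows and 22.2% of those of tested genes. CCAAT stood on either strand in 32 (82.1%), against 41.1% of all windows and 43.7% of those of tested genes, and at least 2 CCAAT in 56.4% against 13.3% of all. Both kinds of word were present in 29 of the 39 windows (74.4%) and in 12.2% of all. In the 150 bases before the start alone, a CHR word stood in 46.2% of the 39 against 16.8% of all, and both kinds in 41.0% against 4.24%. The E2F-type words TTTCGCGC and TTTGGCGC stood in 2 of the 39 (5.13%), those of Cdk1 and Ncapd2, and in 0.929% of all. Words of different kinds were counted on their own where they overlapped, TTTAAA reads the same on both strands, and a word found is a description of these letters, not a bound site.

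In 7 genes chosen as examples, the 150 bases before and 50 after the start are shown 5′ to 3′ on the gene's strand. The CHR and CCAAT words of either strand are in capitals (CCAAT appears as ATTGG and TTTGAA as TTCAAA where they lie on the other strand). Aspm (chr1:139454623-139454822, plus strand), Cenpf (chr1:189688037-189688236, minus) and Plk1 (chr7:122159285-122159484, plus) are shown for their large falls, Anln (chr9:22389157-22389356, minus) and Kif23 (chr9:61946750-61946949, minus) for their genotype difference, and Cdk1 (chr10:69352863-69353062, minus) and Ube2c (chr2:164769779-164769978, plus) as genes that were not called. The 2 capitals that open the Cenpf line are the end of a word that begins before it.
Aspm: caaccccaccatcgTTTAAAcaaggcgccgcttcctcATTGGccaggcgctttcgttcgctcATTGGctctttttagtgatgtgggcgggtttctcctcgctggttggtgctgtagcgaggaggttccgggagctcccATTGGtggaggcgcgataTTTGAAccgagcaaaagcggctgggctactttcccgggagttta
Cenpf: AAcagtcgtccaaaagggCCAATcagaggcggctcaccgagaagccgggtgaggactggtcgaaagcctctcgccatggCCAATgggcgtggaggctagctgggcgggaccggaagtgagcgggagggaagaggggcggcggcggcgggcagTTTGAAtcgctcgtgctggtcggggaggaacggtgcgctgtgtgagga
Plk1: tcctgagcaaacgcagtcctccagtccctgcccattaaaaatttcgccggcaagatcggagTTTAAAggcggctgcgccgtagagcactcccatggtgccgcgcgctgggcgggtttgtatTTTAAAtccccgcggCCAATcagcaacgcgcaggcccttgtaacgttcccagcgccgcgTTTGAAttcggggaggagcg
Anln: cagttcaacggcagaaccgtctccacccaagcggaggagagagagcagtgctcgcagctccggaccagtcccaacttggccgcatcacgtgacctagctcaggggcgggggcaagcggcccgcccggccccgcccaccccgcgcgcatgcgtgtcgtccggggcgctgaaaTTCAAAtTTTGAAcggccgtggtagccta
Kif23: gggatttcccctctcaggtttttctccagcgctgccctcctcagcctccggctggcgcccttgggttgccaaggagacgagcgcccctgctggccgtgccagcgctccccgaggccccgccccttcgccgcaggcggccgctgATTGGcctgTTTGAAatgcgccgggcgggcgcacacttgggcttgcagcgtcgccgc
Cdk1: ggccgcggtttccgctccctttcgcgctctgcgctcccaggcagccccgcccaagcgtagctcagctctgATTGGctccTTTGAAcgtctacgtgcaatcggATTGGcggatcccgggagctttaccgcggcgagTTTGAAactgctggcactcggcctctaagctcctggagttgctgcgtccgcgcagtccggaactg
Ube2c: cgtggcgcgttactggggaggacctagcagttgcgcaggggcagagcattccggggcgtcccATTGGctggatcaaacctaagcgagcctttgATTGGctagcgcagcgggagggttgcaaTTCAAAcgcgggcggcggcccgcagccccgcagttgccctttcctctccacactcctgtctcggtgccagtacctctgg
Each of the 7 windows held a CHR word, and all but that of Anln held a CCAAT word. The 7 are examples and do not stand for the 39. Cdc25b and Ttk fell more than Plk1 and are not shown. The full window of Cdc25b held 1 CCAAT and 0 CHR words, and that of Ttk 2 and 1. Spc24 was not among the genes with a window. The full window of Ube2c held 6 CCAAT and 1 CHR word, that of Cdk1 3 and 2, and that of Aspm 3 and 3. Among the 39 genes the median log2 change in WT cells was -0.79 for the 34 with a CHR word and -0.64 for the 5 without, and the ranges, -1.60 to 0.03 and -1.36 to -0.37, overlapped. With and without CCAAT the medians were -0.74 and -0.88.

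Among Cdk1, its cyclins and Cdc25 phosphatases, 5 of 6 genes were called lower in WT cells after LPS, and 2 after rescaling. Cdc25b, a phosphatase that activates cyclin-bound Cdk1, fell most, with 41.2 and 41.9 CPM in WT_LPS against 107.8 and 108.8 CPM in WT_UT (log2 change -1.36, SE 0.08, adjusted p = 3.39e-07). Ccna2, the cyclin of S phase and G2, had 174 and 145 CPM in WT_LPS against 281 and 278 CPM in WT_UT, a change of -0.81. The 2 B-type cyclins moved less, by -0.45 for Ccnb2 and -0.32 for Ccnb1, and so did Cdc25c, with -0.45; these 3 were not called after rescaling, and with the block as well Ccnb2 and Cdc25c were (adjusted p = 0.00550 and 0.0441). Cdk1, the kinase itself, had 221 and 216 CPM in WT_LPS against 230 and 258 CPM in WT_UT. Its change of -0.16 (SE 0.07) had an adjusted p of 0.0647 in limma, or 0.00658 with the replicate number as a block. After rescaling it was 0.13, with an adjusted p of 0.155 in limma without the block and 0.0212 with it, so the sign of its change follows the scaling.

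All 6 mitotic kinases and checkpoint genes were called lower, and 5 after rescaling. Ttk (Mps1), the kinase at the head of the spindle checkpoint, had 31.4 and 27.3 CPM in WT_LPS against 80.2 and 77.4 CPM in WT_UT (change -1.40, SE 0.09, adjusted p = 5.8e-07). Plk1, the polo-like kinase of mitotic entry and spindle assembly, had 53.4 and 60.4 CPM in WT_LPS against 135 and 142 CPM in WT_UT (change -1.27, SE 0.12, adjusted p = 1.12e-05). In both genes the LPS libraries were under the untreated ones with a wide gap. Bub1b (BubR1), a subunit of the mitotic checkpoint complex, changed by -1.10 and Nek2, a centrosome kinase, by -0.76. Bub1, a checkpoint kinase at the kinetochore, had the smallest change of the 6, with 153 and 143 CPM in WT_LPS against 208 and 218 CPM in WT_UT (-0.52, SE 0.09, adjusted p = 0.000486). For Aurka, the Aurora kinase of the spindle poles, the change was -0.57 over gene reads and -0.29 after rescaling.

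The 4 genes of the chromosomal passenger complex were called lower on both scales. Incenp, its scaffold, had 152 and 161 CPM in WT_LPS against 317 and 336 CPM in WT_UT (change -1.06, SE 0.10, adjusted p = 1.29e-05). Aurkb, its kinase, changed by -0.93 and Birc5 (survivin) by -0.64. Cdca8 (borealin) had 88.4 and 87.3 CPM in WT_LPS against 138 and 135 CPM in WT_UT (change -0.63, SE 0.06, adjusted p = 7.21e-06).

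Of 4 genes of anaphase and mitotic exit 3 were called lower on both scales. Espl1 (separase), the protease that opens cohesin at anaphase, had 79.3 and 88.7 CPM in WT_LPS against 165 and 177 CPM in WT_UT (change -1.02, SE 0.13, adjusted p = 7.23e-05). Cdca3, an adaptor in mitotic entry, changed by -0.78 and Cdc20, the activator of the anaphase-promoting complex, by -0.63. Ube2c, the ubiquitin-conjugating enzyme that starts chains for that complex, did not move with them: it had 128.0 and 125.5 CPM in WT_LPS and 123.8 and 125.1 CPM in WT_UT (change 0.03, SE 0.10, adjusted p = 0.836). After rescaling its change was 0.31 (adjusted p = 0.0207). Its exons overlap those of Tnnc2 on the other strand over 22.8% of their bases, and whether counting used strand is not stated in the labels.

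The 7 centromere and kinetochore genes were all called lower, and 5 after rescaling. Cenpf, a large kinetochore and microtubule-binding protein, had 96.2 and 100.05 CPM in WT_LPS against 269 and 266 CPM in WT_UT (change -1.44, SE 0.10, adjusted p = 1.42e-06). The 4 subunits of the Ndc80 complex, which holds the microtubule end, did not change alike: Ndc80 changed by -0.96, Spc25 by -0.71, Nuf2 by -0.64 and Spc24 by -0.44. Spc24 had 29.1 and 26.8 CPM in WT_LPS against 39.4 and 37.0 CPM in WT_UT (SE 0.10, adjusted p = 0.00367), and its rescaled change of -0.16 was not called without the block (adjusted p = 0.189) and was called with it (adjusted p = 0.0245). Cenpe, a kinetochore motor, changed by -0.55 and Cenpa, the centromeric histone H3 variant, by -0.45.

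All 8 spindle motors and microtubule-binding proteins were called lower, and 6 after rescaling. Aspm, a spindle pole protein, had the largest fall of the 47, with 50.6 and 58.6 CPM in WT_LPS against 168 and 167 CPM in WT_UT (change -1.60, SE 0.12, adjusted p = 2.46e-06). Kif22 (Kid), a motor that pushes chromosome arms, had 39.1 and 40.9 CPM in WT_LPS against 96.3 and 97.5 CPM in WT_UT (change -1.26, SE 0.06, adjusted p = 1.75e-07). Kif2c (MCAK), which takes microtubule ends apart, changed by -1.25, Kif11 (Eg5), which pushes spindle poles apart, by -0.92 and the chromokinesin Kif4 by -0.80. Smaller changes were those of Tpx2, an activator of Aurora A (-0.60), Hmmr, a spindle-associated hyaluronan receptor (-0.53), and Nusap1. Nusap1, which bundles microtubules near chromatin, had 108.0 and 87.6 CPM in WT_LPS against 128 and 125 CPM in WT_UT (-0.37, SE 0.13, adjusted p = 0.0276). That call was lost after rescaling (-0.09, adjusted p = 0.559) and without WT_UT replicate 1, WT_UT replicate 2 or WT_LPS replicate 2 (adjusted p = 0.104, 0.0722 and 0.206).

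The 6 midzone and cytokinesis genes were called lower on both scales and had the lowest median of the 8 classes, -0.97. Anln (anillin), the scaffold of the contractile ring, had 101 and 108 CPM in WT_LPS against 228 and 245 CPM in WT_UT (change -1.17, SE 0.10, adjusted p = 5.52e-06). Ect2, the exchange factor that switches on RhoA at the cleavage site, changed by -1.13, the midzone motor Kif23 (MKLP1) by -1.01, Kif20a (MKLP2) by -0.93 and Kif20b by -0.88. Prc1, which cross-links midzone microtubules, had 141 and 140 CPM in WT_LPS against 190 and 208 CPM in WT_UT (change -0.50, SE 0.06, adjusted p = 4.61e-05). Exons of Kif20a overlap those of Cdc23 on the other strand over 29.3% of their bases, and Cdc23 itself changed by -0.66.

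Of the 6 chromosome structure genes 5 were called lower, and 4 after rescaling. Mki67 (Ki-67), the coat of mitotic chromosomes and the usual proliferation marker, had 587 and 663 CPM in WT_LPS against 1397 and 1451 CPM in WT_UT (change -1.19, SE 0.13, adjusted p = 2.24e-05). The condensin I subunit Ncapd2 changed by -0.85 and Ncapg by -0.58, Top2a, the topoisomerase that untangles sister chromatids, by -0.54, and the condensin ATPase Smc4 by -0.53. Its partner Smc2 had 269 and 214 CPM in WT_LPS against 301 and 288 CPM in WT_UT. The Smc2 change of -0.29 (SE 0.13) was not called (adjusted p = 0.0721), and was called with the replicate block (adjusted p = 0.000276).

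**Figure D2:**
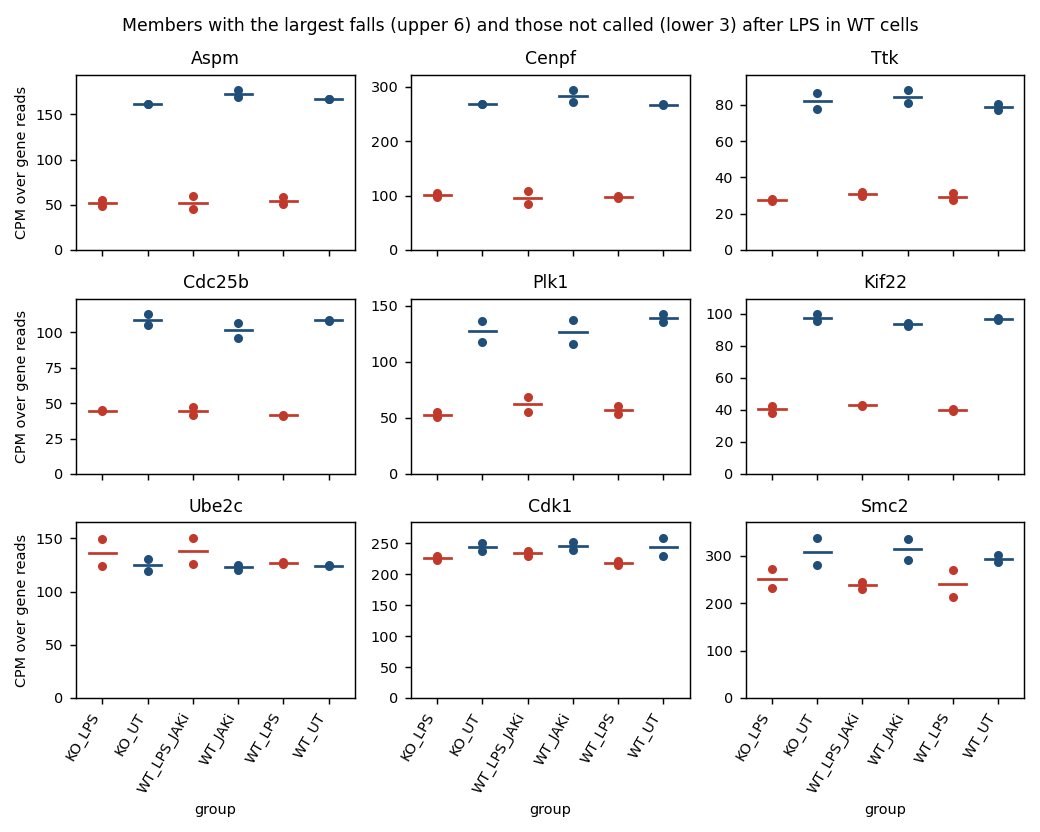
CPM over gene reads (vertical axis, from 0) by group (horizontal axis) for 9 genes; points are libraries, bars are means of 2, red marks groups with LPS and blue groups without. The 6 upper genes are those with the largest falls in WT cells and show a clear gap between red and blue in all 3 pairs, while Ube2c, Cdk1 and Smc2 do not.

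Per kilobase of exon, Mki67 was the most abundant of the 47 transcripts in WT_UT, at 142 CPM per kb, followed by Top2a at 110.0 and Bub1b at 95.2. Ndc80 and Cdc25c were the least, at 9.35 and 6.73. These lengths merge the exons of every annotated transcript, so they overstate the length of single transcripts. Across the 47 genes the WT change went with exon length at a Pearson r of -0.33 and a Spearman rho of -0.23 (n = 47 genes from the same libraries), against -0.10 and -0.10 over 10489 tested genes. With the level per kb the values were 0.19 and 0.21, where the WT_UT libraries enter both measures.

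In KO cells 44 of the 47 genes fell as well and 0 rose, and for 0 of the 47 was the response called different from that in WT cells. The summed level was 6011 and 6031 CPM in KO_LPS against 10395 and 10439 CPM in KO_UT. These counts stand beside 52.7% and 13.9% of all tested genes. The median change was -0.80, and 15 genes fell by at least 2-fold, beside 11.3%. After rescaling 40 were lower and 1 higher, beside 33.1% and 26.7%, and with the block as well 42 and 2, beside 40.4% and 35.3%. edgeR gave 38 lower and 1 higher, beside 32.1% and 27.7%, and DESeq2 38 and 2, beside 30.0% and 29.6%. Smc2, Cdk1 and Ube2c were again not called in limma, with -0.29, -0.11 and 0.12 (adjusted p = 0.0743, 0.176 and 0.323); with the replicate block Smc2 and Cdk1 were (adjusted p = 0.000296 and 0.0410).

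The 6 largest falls in KO cells were those of Aspm, Ttk, Cenpf, Kif2c, Cdc25b and Kif22. Aspm had 48.4 and 54.9 CPM in KO_LPS against 161 and 161 CPM in KO_UT (change -1.63, SE 0.12). Ttk had 28.3 and 27.1 CPM in KO_LPS against 86.7 and 77.9 CPM in KO_UT (change -1.54, SE 0.09). No library of the pair overlapped in either gene. Cenpf had 97.4 and 104 CPM in KO_LPS against 269 and 269 CPM in KO_UT (change -1.41, SE 0.10). Kif2c had 40.3 and 47.9 CPM in KO_LPS against 106 and 120 CPM in KO_UT (change -1.34, SE 0.12). Cdc25b and Kif22 changed by -1.26 and -1.25. Adjusted over all tested genes in limma, the p of these 6 genes ranged from 1.76e-07 to 7.11e-06.

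A test of the difference between the 2 responses to LPS, KO minus WT, called 0 of the 47 genes, beside 0.128% of tested genes higher and 0.284% lower. At an unadjusted p under 0.05 the count was also 0 of 47, beside 674 of 10899 tested genes, and edgeR and DESeq2 called 0. After rescaling it was 0 as well, beside 0.193% and 0.33%. All 47 responses were within 0.2 of each other on the log2 scale; the median absolute difference was 0.05. Spc24 differed most, by 0.18, with an interval of -0.14 to 0.50 (adjusted p = 1.00). The median half-width of these intervals was 0.28. They are not adjusted for the number of genes tested, so larger differences could also go uncalled. Across the 47 genes the KO and WT changes, which share no library, had a Pearson r of 0.98 and a Spearman rho of 0.98, beside 0.97 and 0.96 over all 10899 tested genes.

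**Figure D3:**
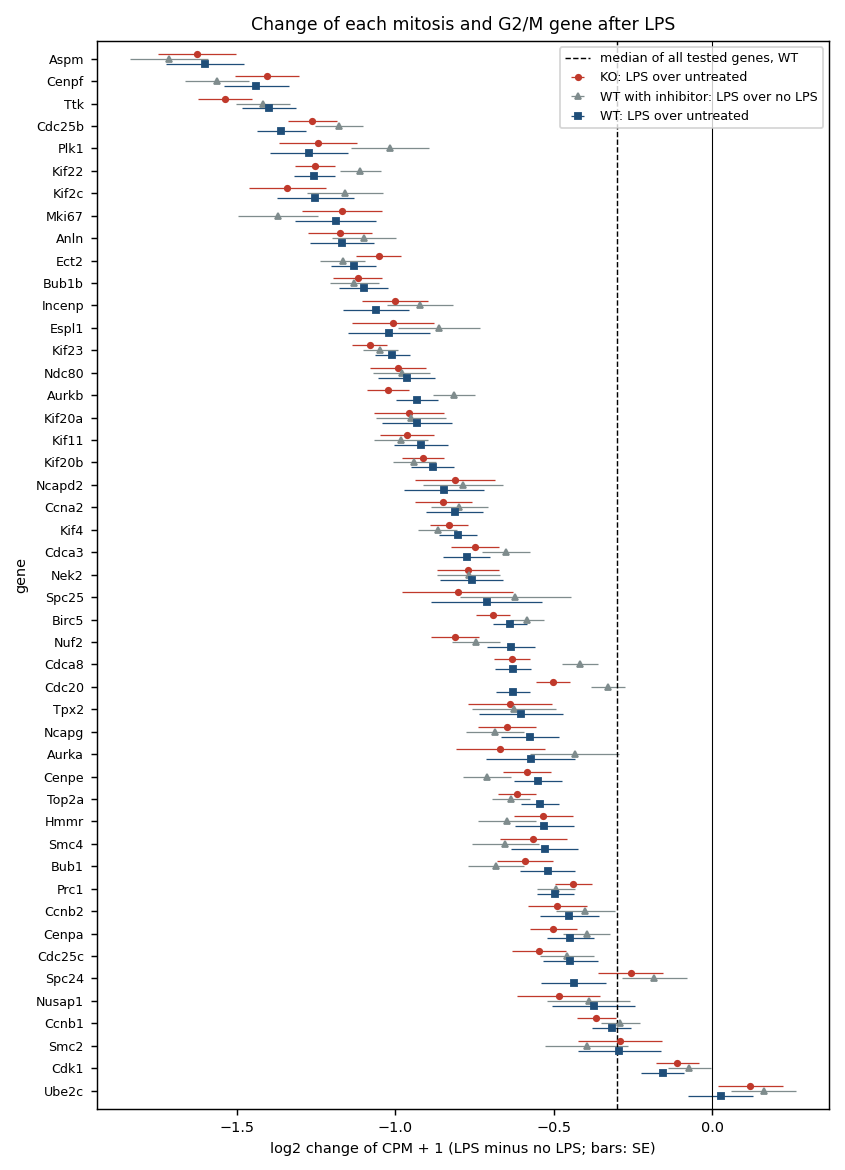
Log2 change after LPS (horizontal axis, bars are SE) of the 47 genes, ordered by the change in WT cells, in KO cells (red circles), in WT cells with the inhibitor (grey triangles) and in WT cells without it (blue squares); the dashed line is the median of all tested genes in WT cells, -0.30. The 3 markers of a gene lie close together from Aspm at the left to Ube2c at the right, with Cdc20, Cdca8 and Spc24 among the wider spreads.

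Set against WT cells of the same treatment, 3 of the 47 genes were called higher in KO cells, about as often as among all tested genes. In untreated cells 3 of 47 genes were called higher in KO and 0 lower, beside 4.31% and 5.37% of all tested genes; after LPS the same 3 were called higher and 0 lower, beside 6.19% and 7.66%. After rescaling the same 3 were called higher and 0 lower, beside 4.38% and 4.75% untreated and 6.4% and 7.74% after LPS. edgeR and DESeq2 also gave 3 higher and 0 lower in both comparisons. Untreated, edgeR called 4.39% of tested genes higher and 4.86% lower, and DESeq2 5.29% and 6.03%. After LPS these shares were 6.15% and 7.72% in edgeR and 6.63% and 8.80% in DESeq2. At an unadjusted p under 0.05 there were 3 higher and 0 lower untreated and 4 higher and 0 lower after LPS. Of the 10899 tested genes 2193 and 2750 passed that limit. The 3 genes were Spc24, Anln and Kif23. The median difference, KO minus WT, over the 47 genes was 0.0034 untreated and -0.04 after LPS. In each comparison the 95% interval lay within 0.5 of 0 for 45 of the 47 genes, the exceptions being Spc24 and Anln.

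Spc24 (chromosome 9, 21755442 to 21760303, minus strand, GRCm38 with GENCODE M21) had 56.5 and 53.0 CPM in KO_UT against 39.4 and 37.0 CPM in WT_UT, a log2 difference of 0.51 (SE 0.10, adjusted p = 0.0126). After LPS it had 48.7 and 42.8 CPM in KO_LPS against 29.1 and 26.8 CPM in WT_LPS, a difference of 0.69 (SE 0.10, adjusted p = 0.00177). Every KO library was above every WT library of either treatment. Anln (chromosome 9, 22332012 to 22389188, minus strand) had 312 and 339 CPM in KO_UT against 228 and 245 CPM in WT_UT (difference 0.46, SE 0.10, adjusted p = 0.0196), and 134 and 154 CPM in KO_LPS against 101 and 108 CPM in WT_LPS (0.45, SE 0.10, adjusted p = 0.0157). Kif23 (chromosome 9, 61915905 to 61946774, minus strand) had 216 and 218 CPM in KO_UT against 174.1 and 173.8 CPM in WT_UT (difference 0.32, SE 0.05, adjusted p = 0.00587), and 100.6 and 103.0 CPM in KO_LPS against 87.1 and 84.7 CPM in WT_LPS (0.24, SE 0.05, adjusted p = 0.0156). In all 3 genes KO and WT libraries of the same treatment did not overlap, which was also seen in genes that were not called. Of the 47 genes, 7 had both KO_UT libraries above both WT_UT libraries and 4 had both below. After LPS these counts were 9 and 6. In WT_JAKi against WT_UT, where 0 genes were called, they were 12 and 4. The share over all tested genes was not counted.

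These calls depend on single libraries, while the differences keep their sign. Untreated, 0 of the 3 were called without WT_UT replicate 1, 1 without KO_UT replicate 1 or WT_UT replicate 2, and 2 without KO_UT replicate 2, with differences of 0.46 to 0.55 for Spc24, 0.40 to 0.52 for Anln and 0.31 to 0.32 for Kif23. After LPS, 1 was called without WT_LPS replicate 1 or without KO_LPS replicate 2 and 2 without either of the others; Kif23 was not called in any of these 4 fits (adjusted p of 0.0524 to 0.0952). With the replicate number as a block, 4 genes were called higher and 2 lower after LPS, beside 14.9% and 16.7% of tested genes: Cdc20 joined the 3 at 0.16 (adjusted p = 0.0108), and Aurka at -0.18 (adjusted p = 0.00744) and Kif2c at -0.15 (adjusted p = 0.0316) were lower. The block left the untreated count at 3 higher and 0 lower, beside 10.9% and 13.7%; with the block and rescaling Ndc80 joined them at 0.17 (adjusted p = 0.0349), beside 11.7% called higher.

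The 3 genes lie in the same stretch of chromosome 9, and so do higher levels of other genes there. Of 322 tested genes on chromosome 9 before 70 Mb, 118 (36.6%) were called higher in KO_UT than in WT_UT, with a median difference of 0.31, and 120 (37.3%) after LPS, with a median of 0.29. Of 274 genes beyond 70 Mb 6 (2.19%) and 9 (3.28%) were called higher, with medians of -0.01 and -0.03, and of 9893 genes on other chromosomes 3.35% and 5.29%. The medians of the 19 other chromosomes ranged from -0.03 to 0.01 untreated and from -0.03 to 0.03 after LPS. The border was set after these values had been seen. Ccnb2 (70407692 to 70421547) and Ttk (83834689 to 83872389), the 2 further members on chromosome 9, lie beyond it and were not called: Ccnb2 differed by -0.04 untreated and -0.08 after LPS, Ttk by 0.06 and -0.08. Of the 42 members on other chromosomes 0 were called in either comparison. LPS itself did not divide the chromosome in this way, since the median change in WT cells was -0.30 before and -0.31 beyond 70 Mb. DNA was not measured in these libraries, and the part of this chromosome segment in the 3 differences was not tested.

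The other cell cycle lists held 4 tested genes in that stretch, of which 2 were called higher untreated and 3 after LPS, and 0 lower. Ncapd3, a condensin II subunit, differed by 0.42 untreated and 0.39 after LPS (adjusted p = 0.00709 and 0.00672), and Zwilch, a kinetochore protein, by 0.39 and 0.32 (adjusted p = 0.0104 and 0.0176). Zw10, its partner at the kinetochore, differed by 0.39 and 0.43 (adjusted p = 0.0658 and 0.0354), so that it was called after LPS alone. The Cdk4 and Cdk6 inhibitor Cdkn2d, at 0.36 and 0.12, was not called in either. Of the 192 list genes not placed there, 1 was called higher and 2 lower untreated, and 4 higher and 5 lower after LPS. E2f6 (chromosome 12), a repressor of the E2F family, had the largest of these differences untreated, 0.46, and 0.48 after LPS (adjusted p = 0.00122 and 0.000679). Lower untreated were Haus8 and Gins3. After LPS Cdt1, Plk3 and Sesn2 were also higher, and Psrc1, Rbl2, Stag1, Tk1 and Sesn1 lower.

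**Figure D4:**
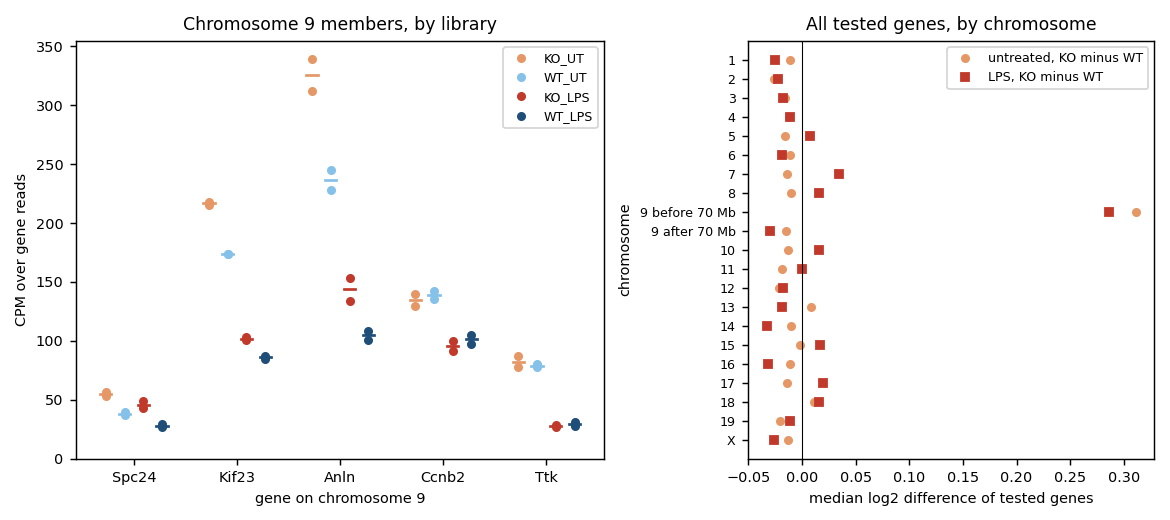
Left, CPM over gene reads (vertical axis, from 0) of the 5 members on chromosome 9, with points for libraries and bars for means of 2; right, the median log2 difference of all tested genes, KO minus WT, by chromosome, with chromosome 9 divided at 70 Mb. KO points lie above WT points of the same treatment for Spc24, Kif23 and Anln but not for Ccnb2 and Ttk. At right only the first stretch of chromosome 9 stands away from 0, at 0.31 untreated and 0.29 with LPS.

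The Jak inhibitor, which blocks the kinases behind interferon and many cytokine receptors, left no called change among the 47 genes without the replicate block. With the block Cdc20 was called in cells given LPS. In WT cells without LPS, WT_JAKi against WT_UT, 0 of 47 genes were called, as were 0.0% of all tested genes. edgeR and DESeq2 called 0 of the 47. At an unadjusted p under 0.05 the count was 0, beside 111 of 10899 tested genes. Rescaling left both at 0 and 0.0%. The summed level was 10214 and 10690 CPM in WT_JAKi against 10170 and 10453 CPM in WT_UT. The median half-width of the 95% intervals was 0.20 and the widest 0.39, and for all 47 genes the interval lay within 0.5 of 0.

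With LPS, WT_LPS_JAKi against WT_LPS, limma again called 0 of 47, beside 0.0734% of tested genes higher and 1.04% lower, and edgeR and DESeq2 called 0. After rescaling it was 0, beside 0.0551% and 1.09%. A single gene, Cdc20, had an unadjusted p under 0.05, beside 787 of 10899 tested genes. It had 127 and 122 CPM in WT_LPS_JAKi against 107 and 110 CPM in WT_LPS, a difference of 0.20 (SE 0.05, adjusted p = 0.222), and with the replicate block it was called (adjusted p = 0.0187), as were 1.68% of tested genes in the same direction.

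In the presence of the inhibitor 44 of the 47 genes were called lower with LPS and 0 higher, beside 50.8% and 13.5% of all tested genes. The summed level was 5872 and 6208 CPM in WT_LPS_JAKi against 10214 and 10690 CPM in WT_JAKi, and the median change was -0.75. A fall of at least 2-fold was called for 12, beside 10.6%. After rescaling 35 were lower and 1 higher, beside 32.5% and 26.4%, and with the block as well 42 and 2, beside 39.8% and 35.2%. edgeR and DESeq2 gave 33 lower and 2 higher each, beside 30.6% and 28.0% in edgeR and 29.1% and 29.8% in DESeq2. Without WT_LPS_JAKi replicate 2 limma called 1 gene higher. Ube2c had 150 and 126 CPM in WT_LPS_JAKi against 121 and 125 CPM in WT_JAKi, a change of 0.16 (SE 0.10, adjusted p = 0.192; 0.0459 with the replicate block) and of 0.42 after rescaling (adjusted p = 0.00464). Cdk1, at -0.07 (adjusted p = 0.369), and Spc24, at -0.18 (adjusted p = 0.144; 0.00917 with the replicate block), were the others not called.

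The largest falls with the inhibitor were those of Aspm, Cenpf, Ttk, Mki67, Cdc25b and Ect2. Aspm had 45.0 and 59.9 CPM in WT_LPS_JAKi against 169 and 177 CPM in WT_JAKi (change -1.72, SE 0.12). Cenpf had 83.7 and 108 CPM in WT_LPS_JAKi against 272 and 294 CPM in WT_JAKi (change -1.56, SE 0.10). In both genes the 2 LPS libraries lay far under the 2 others. Ttk changed by -1.42, Mki67 by -1.37, Cdc25b by -1.18 and Ect2 by -1.17. Across the 47 genes the changes with and without the inhibitor, which share no library, had a Pearson r of 0.95 and a Spearman rho of 0.94. The same values were not computed over all tested genes.

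A test of the difference between the LPS responses with and without the inhibitor called 0 of 47 genes in limma, edgeR and DESeq2, beside 0.0184% of tested genes higher and 0.569% lower in limma; rescaled it was 0, beside 0.0184% and 0.578%. Cdc20 and Cdca8 had an unadjusted p under 0.05, beside 743 of 10899 tested genes. Cdc20 changed by -0.33 with the inhibitor and by -0.63 without it; the difference of 0.30 (SE 0.08) had an adjusted p of 0.222, or 0.0164 with the replicate block, where 1.22% of tested genes were called higher. Cdca8 changed by -0.42 with it and -0.63 without it, a difference of 0.21 (SE 0.08, adjusted p = 0.631).

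**Figure D5:**
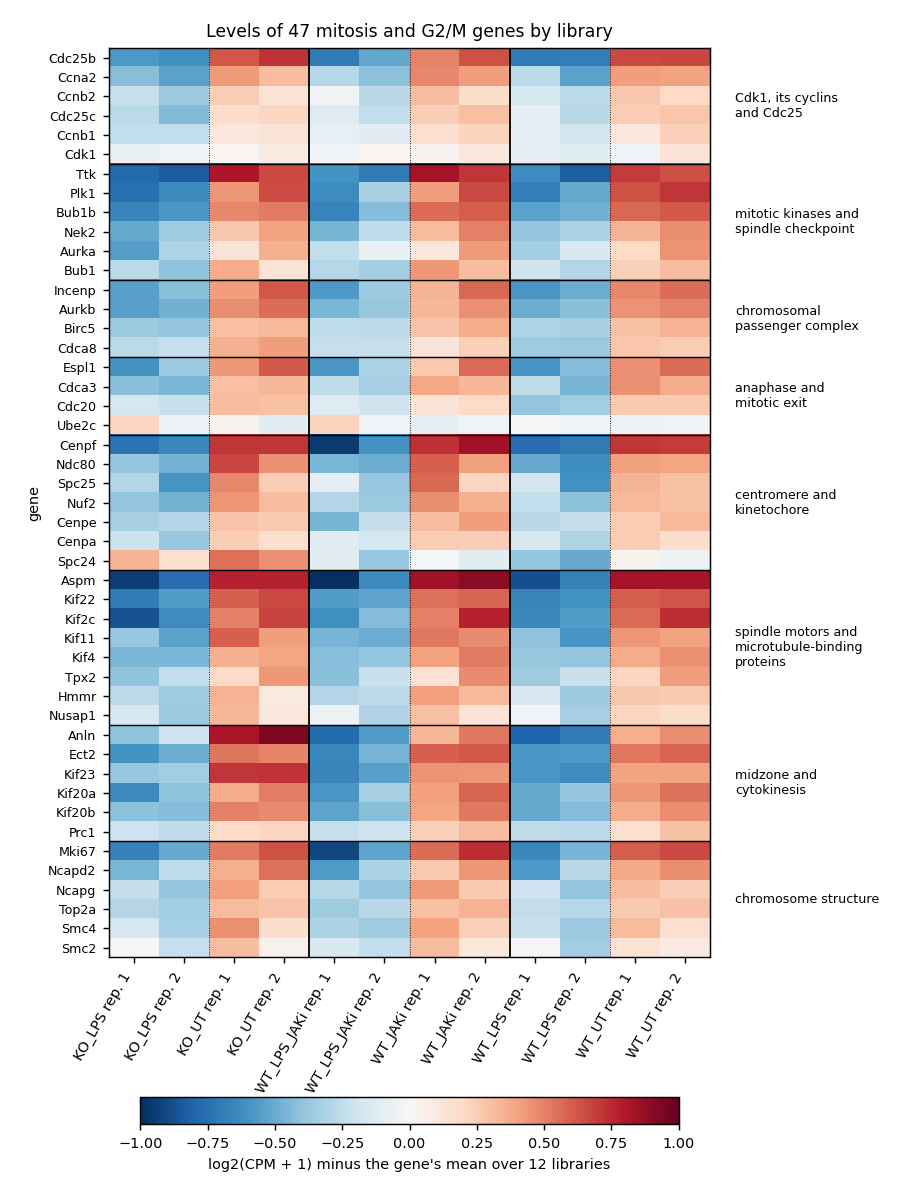
Log2(CPM + 1) of each of the 47 genes (rows, grouped by role) minus its mean over the 12 libraries, in each library (columns, grouped as KO, WT with inhibitor, and WT, with LPS left of no LPS); red is above and blue below the gene's mean. Nearly every row is blue in the 6 LPS libraries and red in the other 6; the rows of Spc24 and Anln are redder in KO, and Ube2c and Cdk1 are pale throughout.

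The 2 replicate numbers differed in the same way in all 6 groups for many of these genes. In 27 of the 47 genes (57.4%) the difference of replicate 1 minus replicate 2 had the same sign in every group, as in 42.1% of all tested genes. It was positive in 13 genes, led by Spc25, Nusap1 and Smc2 (mean log2 differences of 0.28, 0.20 and 0.20), and negative in 14, led by Aurka, Tpx2 and Espl1 (-0.23, -0.21 and -0.20). The labels do not say what the numbers stand for.

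Genes of the same pathway outside the 47 were taken from lists. In WT cells after LPS, 31 of 36 other kinetochore and centromere genes were called lower and 2 higher (Zwint, 0.37, and Cenpc1, 0.23), with a median of -0.66. Of 27 other spindle and cytokinesis genes 24 were lower and 1 higher, with a median of -0.82, from Depdc1b at -2.15 and Psrc1 at -1.96 to Ckap2l at 0.51. Of 14 other condensin and cohesin genes 12 were lower and 1 higher. After rescaling these counts were 23 lower and 2 higher, 19 and 1, and 7 and 1. Over all tested genes the shares were 53.6% lower and 13.7% higher, and 32.5% and 26.4% after rescaling, and every count of a list in WT cells is read beside them.

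Regulators of Cdk1 and of protein destruction were called lower about as often as all tested genes. Of 15 other regulators of Cdk1 and mitotic entry 8 were lower and 1 higher (6 and 2 after rescaling; 13 lower with the replicate block, beside 62.8% of all tested genes), with falls in Mastl (-1.80), Fbxo5, an inhibitor of the anaphase-promoting complex (-1.37), and Wee1, the kinase that holds Cdk1 off (-1.28). Ensa, a substrate of Mastl that restrains the phosphatase PP2A, rose by 0.40. Of 16 genes of the anaphase-promoting complex and its partners 9 were lower and 1 higher, and 4 lower and 6 higher after rescaling, with a median that changed sign with the scale (-0.23 and 0.05). Ube2s, which extends the ubiquitin chains that Ube2c starts, rose by 0.32 over gene reads and by 0.61 after rescaling.

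Of 23 transcriptional regulators of cell cycle genes 19 were lower and 0 higher, and 14 and 3 after rescaling. Foxm1 had 65.7 and 71.6 CPM in WT_LPS against 197 and 209 CPM in WT_UT (change -1.55, adjusted p = 2.6e-06), and Mybl2 (B-Myb) had 56.5 and 59.3 CPM in WT_LPS against 103 and 125 CPM in WT_UT (change -0.96, adjusted p = 0.00147). Both factors were at a lower level in every LPS library, and in KO cells Foxm1 had 65.5 and 72.9 CPM with LPS against 182 and 205 CPM untreated. E2f2 fell most in that list, by 3.01 on the log2 scale, with 7.51 and 5.68 CPM in WT_LPS against 61.2 and 58.4 CPM in WT_UT.

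Regulators of G1 moved both ways. Of 9 tested G1 cyclins, Cdk4 and Cdk6 genes and Cdk inhibitors 3 were higher and 6 lower: Cdkn1a (p21) had 459 and 507 CPM in WT_LPS against 136 and 170 CPM in WT_UT (change 1.66), while Ccnd1 (cyclin D1) had 222 and 243 CPM in WT_LPS against 462 and 545 CPM in WT_UT (change -1.11). Of 13 growth arrest and stress genes 7 were higher and 5 lower, with Gadd45b at 4.92, Plk2 at 3.05, Plk3 at 0.38 and Sesn1 at -3.23. Of 43 DNA replication and G1/S genes 42 were lower and 0 higher, with a median of -0.71, and 28 and 0 after rescaling, so the lower levels were not limited to genes of mitosis.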

How the data were processed

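RNA sequencing of 12 libraries was used as a table of CPM (reads scaled to 1 M per library) that the authors deposited. Per the submitters' processing notes they used TopHat2 2.1.0, HTSeq and edgeR, with builds named mm10 and GRCm38; annotation and strand setting are not stated there. Another 4 per-sample columns matched no label and were not used here. All values came out as whole reads within 0.02 reads (100%). The 5 summary lines of the counter were left out, and CPM were recomputed over gene reads, which were 58.9 to 64.1% of the 57.1 to 74.2 M reads counted.

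Tested genes had 1 CPM or more in 2 or more libraries. The test was limma 3.58.1 (R 4.3.3) on log2(CPM + 1), with a trend and 6 group means over all 12 libraries, and p-values were adjusted over 10899 genes by the Benjamini-Hochberg method. The 2 libraries of a group correlated at a Pearson r of 0.995 to 0.997 and differed by more than the sampling of reads. The labels number replicates 1 and 2. Across genes, the difference of replicate 1 minus 2 in a group correlated with that in each other group (15 pairs, r of 0.468 to 0.737), so the numbers were taken to pair the libraries. Calls are those without the replicate block unless the block is named, so the shared replicate difference stays in their spread. With the block alone, 46 of the 47 genes were called lower after LPS in WT cells and 46 in KO cells. These counts stand beside 62.8% and 62.2% of tested genes. With the inhibitor 45 were lower and 1 higher, beside 59.7% and 18.4%.

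Alternatives were no filter, a filter of 5 CPM in place of 1, a pseudocount of 0.25, a median-of-ratios rescaling (over 8473 genes with at least 5 CPM in every library), CPM as deposited, the replicate block, only the groups compared, each library left out, edgeR 4.0.16 and DESeq2 1.42.0 on the recovered reads, and promoter windows of 150 bases before the start. The scripts were tested on simulated data. Positions are of GENCODE M21, promoters of RefSeq. The members, lists and tests were chosen with earlier results of these data known. Libraries are shown for the 6 largest called changes of each comparison, for members that went the other way, for 3 members nearest 0 and for the largest and smallest change of each class; the lists are named by their largest changes and by Foxm1, Mybl2, Cdkn1a, Ccnd1, Plk2 and Plk3. Other genes named were chosen after their values were seen.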

Additional observations from a re-analysis of the deposited data

Results flagged for a closer look

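The response of Cdc20 to LPS was called different with the Jak inhibitor when the replicate number was fitted as a block. It was the 1 gene of the 47 so called, beside 1.22% of tested genes called higher and 1.70% lower. The level of Cdc20 was 127 and 122 CPM in WT_LPS_JAKi against 153 and 160 CPM in WT_JAKi. It was 107 and 110 CPM in WT_LPS against 168 and 168 CPM in WT_UT. The difference between the 2 log2 changes was 0.300 (adjusted p = 0.0164 with the block in limma). Without the block the adjusted p was 0.222, and neither edgeR nor DESeq2 called the gene.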

How the results depend on the processing

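The number of the 47 genes called lower after LPS stayed within 1.5 times its value under every alternative run. Called higher after LPS in WT cells were 1 under rescaling, edgeR and DESeq2 and 2 under the replicate block with rescaling; in KO cells 1, 1, 2 and 2 in the same order; with the inhibitor 1, 2, 2 and 2, and 1 under the block alone. The median change in WT cells was -0.47 rescaled, with or without the block, -0.46 in edgeR, -0.43 in DESeq2 and -0.80 with CPM as deposited; in KO cells it was -0.53, -0.52 and -0.50 in the first 3; with the inhibitor -0.49, -0.47 and -0.45. With CPM as deposited the medians were -0.0854 for KO_UT against WT_UT, -0.10 for KO_LPS against WT_LPS, 0.0758 for WT_LPS_JAKi against WT_LPS and 0.0345 for the inhibitor's difference in response. The block, alone and with rescaling, called 2 genes lower in KO_LPS than WT_LPS, 1 higher in WT_LPS_JAKi than WT_LPS and 1 higher for the difference in response with the inhibitor. The cause was not tested. Without the last 50 bases and the first 100 of the window, fewer bases were searched, and the share of the promoters with a CHR word was 46.2%, against 16.8% of all, and with both words 41.0%, against 4.24%.

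Leaving out each library in turn gave medians of -0.74 to -0.67 in WT cells, -0.79 to -0.73 in KO cells and -0.77 to -0.73 with the inhibitor after LPS. It gave 0 to 2 genes higher in KO_UT than WT_UT, 1 to 2 in KO_LPS than WT_LPS (medians -0.0325 to 0.00965) and 0 to 1 after LPS with the inhibitor. The medians of WT_LPS_JAKi against WT_LPS were 2.06e-05 to 0.0535, and those of the inhibitor's difference in response -0.0270 to 0.0474.

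Over 36 named results and 504 alternative values, 467 kept direction and side of the threshold, 27 lost the call, 9 gained it and 1 reversed: Cdk1 in WT cells, at 0.13 with the block and rescaling (adjusted p = 0.0212). Kif23 in KO_LPS against WT_LPS was not called when only those groups were fitted (adjusted p = 0.109), nor was Bub1 in WT cells by edgeR or DESeq2 (adjusted p = 0.0584 and 0.0711). With 2 libraries per group, changes under about 0.20 on the log2 scale, the median half-width of an interval, would mostly not be detected. For differences between 2 responses that half-width was 0.28. These intervals are not adjusted for the number of genes tested, so larger changes could also go uncalled. Without rescaling, the block changed no call of the 47 genes beyond those named in the text. With rescaling it called 42 lower in each of the 3 LPS comparisons, and 4 higher in KO_UT than WT_UT.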
